A study of Oncorhynchus mykiss with 15 samples.

Results

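MicroRNA levels in the liver of rainbow trout (Oncorhynchus mykiss) were compared between fish kept in hypoxia for 12 h and for 3 h, 3 libraries against 3. Every form in the deposited table was considered, and forms that carried the same values in all 15 libraries were counted once, which left 1019 distinct profiles of 1213 listed. Of these, 622 reached a mean value of 10 across all libraries and were tested. The other libraries of the study, 3 each of control, 24 h of hypoxia and reoxygenation for 3 h, entered the fit only to share its estimate of spread. All fish were labelled wild-type and all samples were liver. The oxygen level, the age of the fish and whether a library came from 1 fish or a pool are not stated in the labels, so the p-values reflect only how far these libraries spread, which may be technical.

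A microRNA is cut from a hairpin precursor whose arms, called 5p and 3p, can each yield a mature strand. The mature strand guides a silencing complex to messenger RNAs, mainly through its seed, the stretch from base 2 to base 8. Forms of one microRNA number make a family, whose members often share a seed and are then expected to recognise overlapping sets of targets. In vertebrate liver, miR-122 is the dominant microRNA of hepatocytes, and miR-210 is the one most widely induced by low oxygen in mammals. Below, a family is every form with the same number, and a family switched where at least 2 of its profiles passed in one direction and none in the other. End or base variants of the same strand are separate profiles. A switch can therefore rest on a single strand, as for miR-138, miR-150 and miR-10014. A species prefix such as ssa (salmon) names the reference entry a form was matched to, and suffixes such as R+1 or 1ss18GA mark end or base changes from that entry.

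Between 3 and 12 h of hypoxia, 8 families switched to higher levels: miR-19, miR-101, miR-126, miR-130, miR-135, miR-152, miR-7132 and miR-10014. Another 4, miR-24, miR-138, miR-150 and miR-9226, switched to lower levels. In 6 more, let-7, miR-15, miR-22, miR-181, miR-199 and miR-457, some forms rose while others fell. Among all 622 profiles, limma with Benjamini-Hochberg adjustment called 95 at an adjusted p under 0.05 (15.3%), 54 of them higher (8.68%) and 41 lower (6.59%) at 12 h, and 209 had an unadjusted p under 0.05. For 312 profiles the libraries of one group all lay to one side of the other group's (50.2%), 131 higher (21.1%) and 181 lower (29.1%) at 12 h. The median profile changed by -0.28 on the log2(value + 1) scale, which is the scale of every change given below.

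Called forms of 4 families that switched higher are shown. The forms printed for miR-101, miR-19 and miR-135 share a seed within their family and rose together. For miR-152 the main strand alone is shown. Of 8 tested forms with the miR-19 seed, 4 passed. Capitals mark the seed, and letters are as deposited, with T for U.
ssa-miR-101b-3p_R+1: tACAGTACtatgataactgaag
ssa-miR-101a-3p: tACAGTACtgtgataactgaag
ssa-miR-152-3p: tCAGTGCAtaacagaactttg
ssa-miR-19a-3p: tGTGCAAAtctatgcaaaactg
ssa-miR-19c-3p: tGTGCAAAtccatgcaaaactg
ssa-miR-135b-5p: tATGGCTTtctattcctatgtga
ssa-miR-135c-5p: tATGGCTTtttattcctacgtga
The miR-101 pair differ at 1 of 22 bases, and so do the miR-19 pair, in each case outside the seed.

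The lowest adjusted p-values of the comparison belonged to 3p strands of miR-101, a family known in mammals for repressing the histone methyltransferase EZH2. ssa-miR-101b-3p_R+1 was at 363, 436 and 231 in the 3 libraries of 3 h and at 7889, 4963 and 5526 in those of 12 h. The groups lay far apart, an 18.0-fold rise with a log2 change of 4.17 ± 0.48 (SE; limma adjusted p = 0.000213). ssa-miR-101a-3p went from 189, 174 and 128 to 2371, 1929 and 2242, a log2 change of 3.74 ± 0.50 (limma adjusted p = 0.000589). Again no library of one group came near the other. In all, 4 of 6 tested miR-101 profiles rose, each carrying the seed shown above. The remaining 2 were the 5p strands, which differed by -1.23 for miR-101a and -0.78 for miR-101b without passing. miR-101 met the definition of a switch in each of the 6 fits that left out 1 library of the 2 groups. It had forms called in both directions, and so did not, in 5 other settings: scaled to the library total, scaled to the total without miR-122, with the 6 libraries alone, without library 1 of 24 h and of reoxygenation, and with a replicate block.

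miR-152, of the miR-148/152 family that represses the DNA methyltransferase DNMT1 in mammals, rose in 5 of 6 tested profiles. Its main strand ssa-miR-152-3p had values of 5782, 5241 and 3561 at 3 h against 64023, 64583 and 54967 at 12 h. This was a 12.8-fold rise, 3.68 ± 0.55 on the log2 scale (limma adjusted p = 0.000882), and it passed in each of the 6 fits without 1 library. The other strand, ssa-miR-152-5p_L-1, rose less, from 152, 346 and 199 to 745, 594 and 561, with a log2 change of 1.52 ± 0.46.

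miR-19, made from the miR-17-92 family of clusters, rose in 4 of 8 profiles, all 3p strands. These were minor beside miR-19d-3p, which was at 1485, 3544 and 4422 after 3 h and at 3178, 3645 and 3323 after 12 h. Its difference of 0.24 did not pass. ssa-miR-19c-3p was at 22, 99 and 117 after 3 h and at 571, 552 and 565 after 12 h, a log2 change of 3.12 ± 0.68 (limma adjusted p = 0.0118). ssa-miR-19a-3p_R+1 went from 8, 40 and 47 to 315, 283 and 394, a change of 3.66 ± 0.91. Library 1 of 3 h was the lowest of its group for both. dre-miR-19c-3p_R-1 was listed at 0 in all libraries of 3 h and at 26, 29 and 25 at 12 h. The 5p strand of miR-19c went the other way, from 143, 206 and 208 to 44, 63 and 83. It did not pass under the main settings but did with forms summed (-1.56, limma adjusted p = 0.0490). miR-19 had forms called in both directions, and so did not switch, in several settings. These were forms summed, every row counted, a pseudocount of 5, a filter at a mean of 50 and a replicate block. So were the 6 libraries alone and the fit without library 1 of 24 h and of reoxygenation. Scaling to the library total, with or without miR-122, did the same. Summing forms by number, letter and arm left 481 features, of which 80 were called (16.6%), 45 higher (9.36%) and 35 lower (7.28%). Then 8 families switched, 7 of them among the 12 named above. These were miR-101, miR-126, miR-130, miR-135, miR-152 and miR-7132 upward and miR-9226 downward. miR-10014, miR-19, miR-24, miR-138 and miR-150 no longer met the definition. miR-138-5p, then a single feature, still passed (-2.68, limma adjusted p = 0.0283).

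Both strands of miR-126, the microRNA of endothelial cells, rose. ssa-miR-126-3p was at 6723, 7424 and 5825 after 3 h and at 38257, 46077 and 39432 after 12 h, a log2 change of 2.63 ± 0.63 (limma adjusted p = 0.0169). ssa-miR-126-5p went from 850, 635 and 534 to 2822, 2983 and 3027, a change of 2.15 ± 0.47. Each strand was tightly grouped within a time and the groups did not overlap. In bulk liver, more cells of a type and more microRNA per cell cannot be told apart.

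miR-130, miR-135 and miR-7132 also switched upward. miR-130 rose in 3 of 9 profiles, led by ssa-miR-130b-5p (103, 157 and 111 against 488, 528 and 513) with a log2 change of 2.06. All 9 of its profiles had a log2 change above 0. Both tested profiles of miR-135 rose: ssa-miR-135c-5p from 130, 286 and 165 to 1050, 742 and 796 (2.21 ± 0.45), and ssa-miR-135b-5p from 148, 141 and 199 to 600, 658 and 622 (1.96 ± 0.44). In miR-7132 2 of 6 profiles rose, both 3p strands: ssa-miR-7132a-3p_R-1 from 0, 5 and 0 to 70, 50 and 48 (4.95 ± 1.21) and ssa-miR-7132b-3p from 328, 187 and 428 to 747, 824 and 1035 (1.53 ± 0.42). Its 5p strand ssa-miR-7132b-5p was at 3514, 2919 and 5568 and at 787, 1010 and 1340, a difference of -1.91 that did not pass. Of the 6 miR-7132 profiles 4 had a log2 change below 0, with a median of -0.095 over the family. The 2 that rose do not share a seed.

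In miR-10014, 3 of 5 tested profiles rose, and the main one, pal-miR-10014-5p_1ss17AT, went from 493, 163 and 184 to 1550, 1917 and 2008 (2.88 ± 0.63, limma adjusted p = 0.0123). All listed miR-10014 forms share their first 15 to 17 bases with the main form of miR-122, so the 2 may share reads and the family is uncertain as a separate one. That main form, ssa-miR-122-5p_R-1, rose from 781362, 898129 and 473446 to 3213546, 3210124 and 3464852, a log2 change of 2.25 ± 0.62 (limma adjusted p = 0.0266). It was the most abundant form in both groups.

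**Figure D1:**
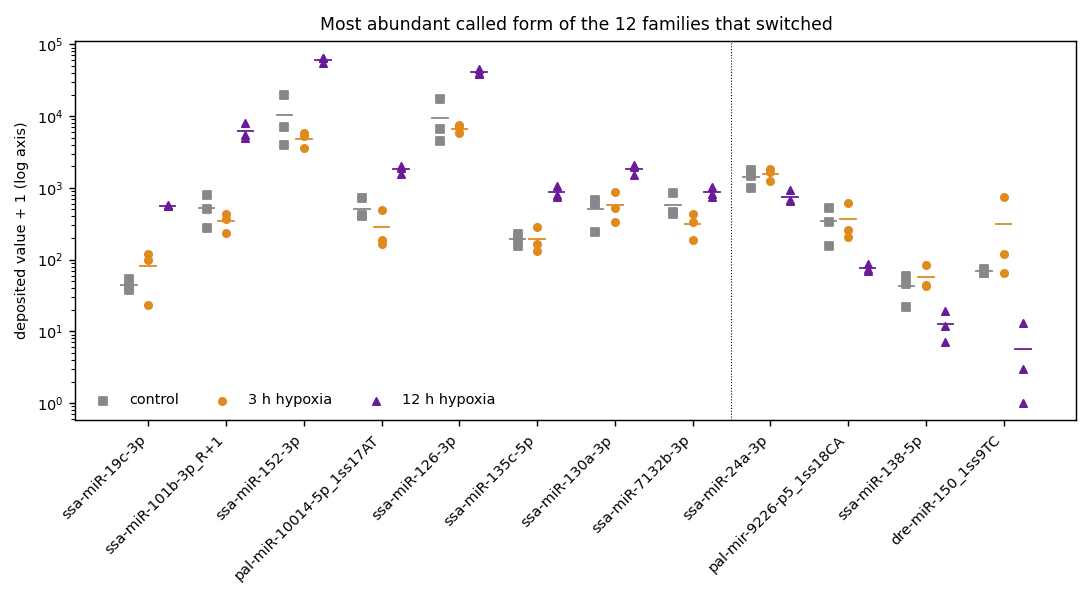
Deposited values plus 1 (log axis) of the most abundant called form of each of the 12 families that switched, in the 3 libraries each of control (squares), 3 h of hypoxia (circles) and 12 h of hypoxia (triangles), with short bars at the means. Left of the dotted line the 12 h libraries lie above the 3 h libraries, as for ssa-miR-152-3p, and right of it below them, with no overlap.

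Of the families that switched to lower levels, miR-24 is made in clusters with miR-23 and miR-27. ssa-miR-24a-3p fell from 1674, 1258 and 1812 at 3 h to 648, 924 and 670 at 12 h, a log2 change of -1.08 ± 0.35 (limma adjusted p = 0.0483). ssa-miR-24b-3p fell from 222, 122 and 217 to 51, 31 and 36 (-2.20 ± 0.61). These carry the same seed:
ssa-miR-24a-3p: tGGCTCAGttcagcaggaac
ssa-miR-24b-3p: tGGCTCAGttcagcagaaaccg
Of 5 tested miR-24 profiles, all had a log2 change below 0 and 2 passed. With forms summed miR-24a-3p did not pass (-0.97, limma adjusted p = 0.0662) while miR-24b-3p did, so miR-24 no longer switched. miR-138, enriched in brain in mammals, fell in both of its profiles, ssa-miR-138-5p from 43, 84 and 42 to 11, 6 and 18 (-2.22 ± 0.70) and hsa-miR-138-5p_R+1 from 21, 28 and 14 to 0 in every library. The 7 tested profiles of miR-9226 were all below 0, from -3.07 to -1.88, and 3 passed. The main called one, pal-mir-9226-p5_1ss18CA, went from 622, 259 and 207 to 69, 73 and 87.

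The fall of miR-150, known from mature lymphocytes, was in minor forms. dre-miR-150_1ss9TC was at 117, 64 and 750 in the libraries of 3 h and at 0, 2 and 12 in those of 12 h, and aca-miR-150-5p_R+1 at 23, 14 and 227 against 0 in all. Library 3 of 3 h was the highest in both. The main form ssa-miR-150-5p_R+2 was at 3561, 3238 and 3732 and at 1645, 1900 and 2480, a difference of -0.82 that did not pass (limma adjusted p = 0.265), and neither did miR-150-5p with its 3 forms summed (-0.86, limma adjusted p = 0.232). cfa-miR-486_R+1, a form of a red blood cell microRNA, showed a like pattern, with 303, 331 and 943 at 3 h and 0 in every library of 12 h (limma adjusted p = 0.000768), and passed in each fit without 1 library. Summed levels of the defining markers of red blood cells (miR-144, miR-451 and miR-486) were 3915 to 9058 at 3 h and 5145 to 7436 at 12 h, and those of white blood cells (miR-142, miR-150, miR-155 and miR-223) 4742 to 7412 and 3254 to 4772. Over all 622 tested profiles, 6.59% fell and 8.68% rose. Of the blood cell markers, 1 of 8 tested red cell profiles and 2 of 12 white cell profiles were called lower and none higher. The 2 white cell profiles were the minor miR-150 forms above. Other white cell markers did not fall together. ssa-miR-142a-5p_L+2R-1 went from 335, 219 and 388 to 706, 414 and 623, and ola-miR-223_R+2 from 347, 435 and 588 to 637, 476 and 490. ssa-miR-155-5p was at 2593, 492 and 459 and at 473, 131 and 659. The part of blood cells in these falls was not tested.

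**Figure D2:**
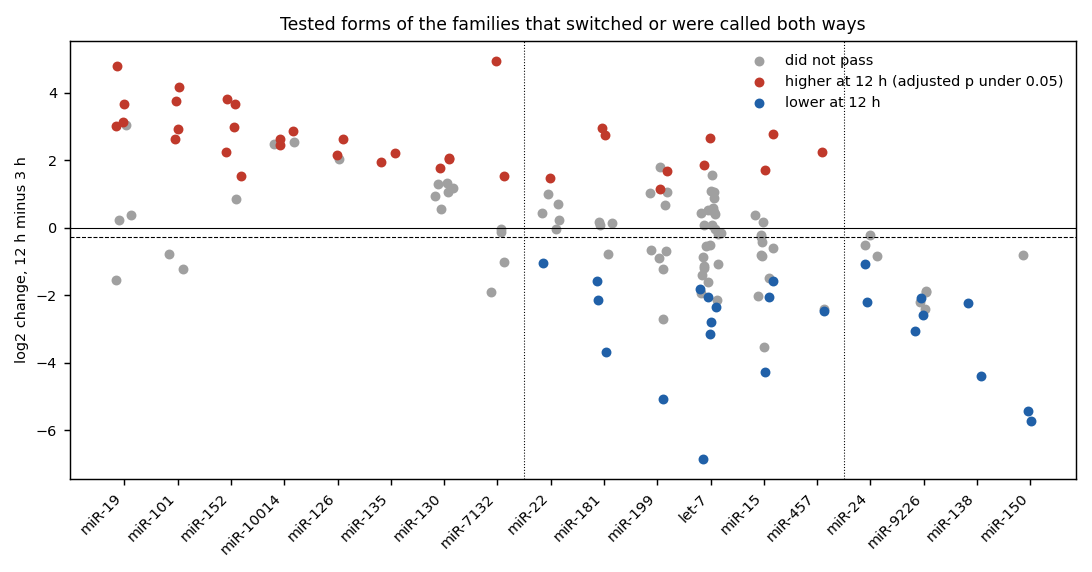
Log2 change (12 h minus 3 h) of every tested form in the 8 families that switched higher (left), the 6 with forms called in both directions (middle) and the 4 that switched lower (right). Points are forms, coloured by whether they passed, and the dashed line is the median of all tested profiles, -0.28.

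Forms with one seed moved in opposite directions in let-7 and in the group of miR-15, miR-16 and miR-457. The called members with a salmon name are shown because the seed is the same and the rest of the strand is not.
ssa-let-7e-5p: tGAGGTAGtagattgaatagtt
ssa-let-7g-5p: tGAGGTAGtagtttgtatagtt
ssa-let-7b-5p: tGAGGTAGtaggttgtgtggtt
ssa-miR-15a-5p_L-2_1ss18GA: tAGCAGCAcgtcatgatttgt
ssa-miR-15b-5p: tAGCAGCAcatcatgttttgc
ssa-miR-15d-5p: tAGCAGCAcagaatggtttgt
Over 22 bases, let-7b differs from let-7e at 4 and from let-7g at 3, with the first difference at base 12.

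let-7, a family that restrains growth genes such as those of the Ras and Lin28 pathways in animals, had 2 forms that rose and 6 that fell among 32 tested (median log2 change -0.34). ssa-let-7e-5p went from 21208, 21707 and 14679 to 124802, 111284 and 122442, 6.31-fold higher (log2 change 2.66 ± 0.55, limma adjusted p = 0.00995). ssa-let-7g-5p rose from 10648, 8388 and 5521 to 29625, 28077 and 28987 (1.87 ± 0.44). ssa-let-7b-5p, with the same seed, fell from 15642, 9071 and 14475 to 2510, 2521 and 2419, 5.12-fold lower (log2 change -2.36 ± 0.56, limma adjusted p = 0.0169). Within each of the 3 forms the groups lay well apart. ssa-let-7a-5p, another abundant member, was at 47904, 33999 and 40236 and at 41812, 40631 and 44626, with overlapping groups. The falls also took in 3p strands, such as ssa-let-7h-3p_1ss4TG from 6956, 6565 and 6722 to 1661, 1487 and 1764 (-2.05 ± 0.41).

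In the seed group of miR-15, miR-16 and miR-457, of which miR-15 and miR-16 restrain cell cycle genes in mammals, 4 of 15 tested profiles rose and 3 fell. ssa-miR-15a-5p_L-2_1ss18GA rose from 1795, 4339 and 2034 to 10503, 5260 and 10033 (1.71 ± 0.40, limma adjusted p = 0.0144). gmo-miR-16b-5p_R-1_1ss17TC rose from 2204, 4537 and 1872 to 15169, 7353 and 12902 (2.09 ± 0.53). In both, library 2 was the highest of 3 h and the lowest of 12 h, and the groups still did not overlap. ssa-miR-15b-5p fell from 6935, 4539 and 6687 to 1539, 1247 and 1550 (-2.05 ± 0.63). ssa-miR-15d-5p fell from 13043, 8160 and 6165 to 3766, 2247 and 2930 (-1.57 ± 0.43). oni-miR-457 fell from 23845, 14109 and 23513 to 3184, 3404 and 4342 (-2.46 ± 0.72), while ccr-miR-457b_L+1_2ss10AG22GA rose from 231, 792 and 241 to 2357, 1081 and 1863 (2.25 ± 0.56). ssa-miR-16a-5p, the most abundant of the group, was at 11284, 16989 and 13367 and at 26765, 24651 and 25352, a difference of 0.90 that did not pass.

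**Figure D3:**
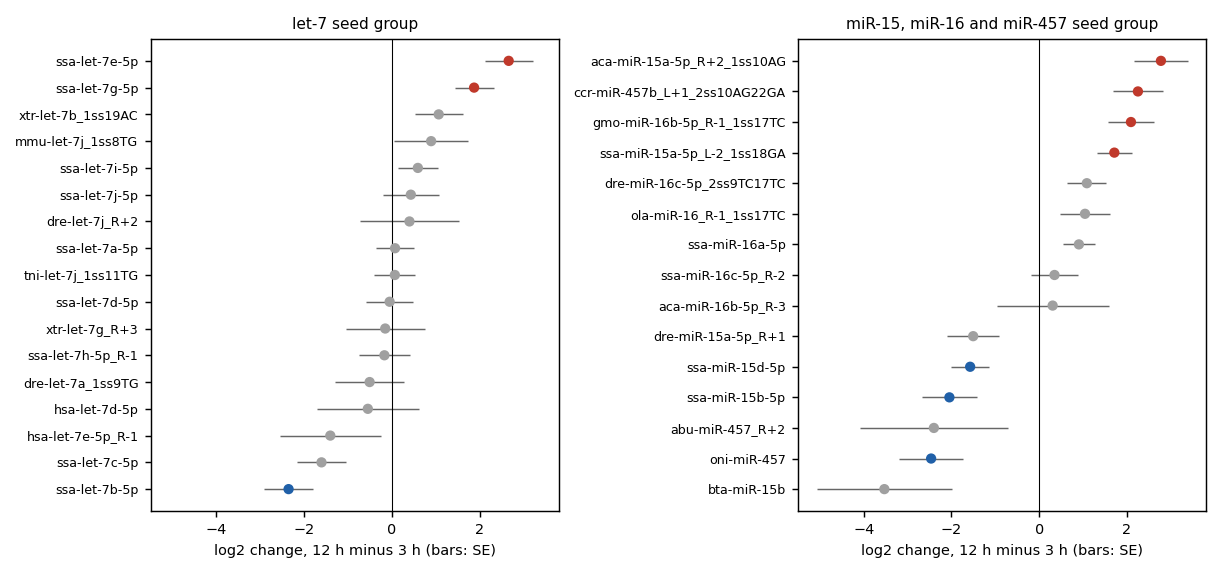
Log2 change (12 h minus 3 h, bars SE) of every tested form with the let-7 seed (left, 17 forms) and with the seed shared by miR-15, miR-16 and miR-457 (right, 15 forms). Red forms rose, blue forms fell and grey forms did not pass, so that ssa-let-7e-5p and ssa-let-7b-5p stand at opposite ends.

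In miR-181, a family known from lymphocytes, the called 5p and 3p forms parted. ssa-miR-181a-5p fell from 17783, 19958 and 30158 to 5652, 8978 and 8034 (-1.57 ± 0.43), and ssa-miR-181a-1-3p rose from 530, 926 and 725 to 4097, 5975 and 4428 (2.75 ± 0.40, limma adjusted p = 0.000768), passing in each of the 6 fits without 1 library. Of 5 tested forms with the seed of ssa-miR-181a-1-3p, 2 were called higher, with a median log2 change of 0.17 over the 5. miR-199, known from stromal cells, had 2 minor forms of its 3p strand that rose. A minor 5p form, ola-miR-199a-5p_R+1_1ss18CG, fell from 119, 125 and 175 to 0, 4 and 13. The main 3p form, ssa-miR-199a-3p, was not called. With forms summed neither miR-199a-3p (1.08, limma adjusted p = 0.0596) nor miR-199a-5p (-0.91, limma adjusted p = 0.184) passed. One of the risers, ola-miR-199a-3p_R+1, rose from 518, 703 and 398 to 999, 1172 and 1336 (1.14 ± 0.34) and had a change of -0.11 with values scaled to the library total. In miR-22, abundant in hepatocytes, ssa-miR-22a-3p rose from 136153, 140936 and 101249 to 385577, 326863 and 329566 (1.47 ± 0.44) and ssa-miR-22b-3p fell from 774, 511 and 537 to 292, 271 and 304 (-1.04 ± 0.33). Their strands differ at 2 of 22 bases, outside the seed.

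Because 3p and 5p strands moved apart in several of these families, the ratio of the 3p to the 5p strand was tested within each microRNA. Here a microRNA is all forms of one number and letter. These can come from more than 1 hairpin, so a ratio need not be that of a single precursor. This comparison was added after the values above had been seen. A ratio within a library is, apart from the pseudocount, the same whatever total the library is scaled to. Of 99 microRNAs with both strands, limma called 31 (31.3%), 19 towards the 3p strand (19.2%) and 12 towards the 5p strand (12.1%), with Benjamini-Hochberg adjustment over the 99. Without one library at a time, 18 to 26 were called, with 20 without library 1 or library 3 of 3 h and 18 without library 1 or library 2 of 12 h. After a correction for GC content, described below, 24 of the 99 were called, 16 towards 3p and 8 towards 5p. Of these, 21 were among the 31. Those towards 5p that no longer passed were miR-29c, let-7i, miR-462a, miR-214 and miR-15a. Those towards 3p were miR-199a, miR-25, miR-26a, miR-128 and miR-92a.

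Several microRNAs went from more 5p to more 3p in the deposited values. For miR-101b, 3p forms summed to 363, 436 and 231 beside 3805, 5008 and 5972 of 5p at 3 h, and to 7889, 4963 and 5526 beside 2666, 3173 and 2640 at 12 h. The 5p strand was the higher one in each library of 3 h and the lower one in each library of 12 h, a log2 ratio change of 4.96 ± 0.57 (limma adjusted p = 3.80e-05). miR-101a did the same (4.97 ± 0.75), as did miR-19c (4.75 ± 0.56), whose 3p forms went from 22, 99 and 117 to 597, 581 and 590 while 5p went from 143, 206 and 208 to 44, 63 and 83. For miR-181b the ratio changed by 5.13 ± 1.05. In miR-181a the 3p share grew but 5p stayed above it in every library (3.65 ± 0.66). These changes passed with the GC correction described below as well.

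Towards the 5p strand, let-7g changed by -3.96 ± 0.62 (limma adjusted p = 0.000508), since its 3p forms went from 1234, 897 and 811 to 244, 222 and 215 as 5p rose. miR-21a, of a family induced in injured liver in mammals, changed by -3.57 ± 0.81, with 3p at 458, 125 and 250 and then 50, 59 and 38 beside 25263, 23912 and 18511 and then 63742, 55261 and 43973 of 5p. miR-140 changed by -2.45 ± 0.51, its 3p strand going from 8767, 6854 and 5849 to 4461, 4293 and 3568 and its 5p strand from 333, 712 and 555 to 1867, 1591 and 1404. In each of these 3 the groups' ratios did not overlap.

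**Figure D4:**
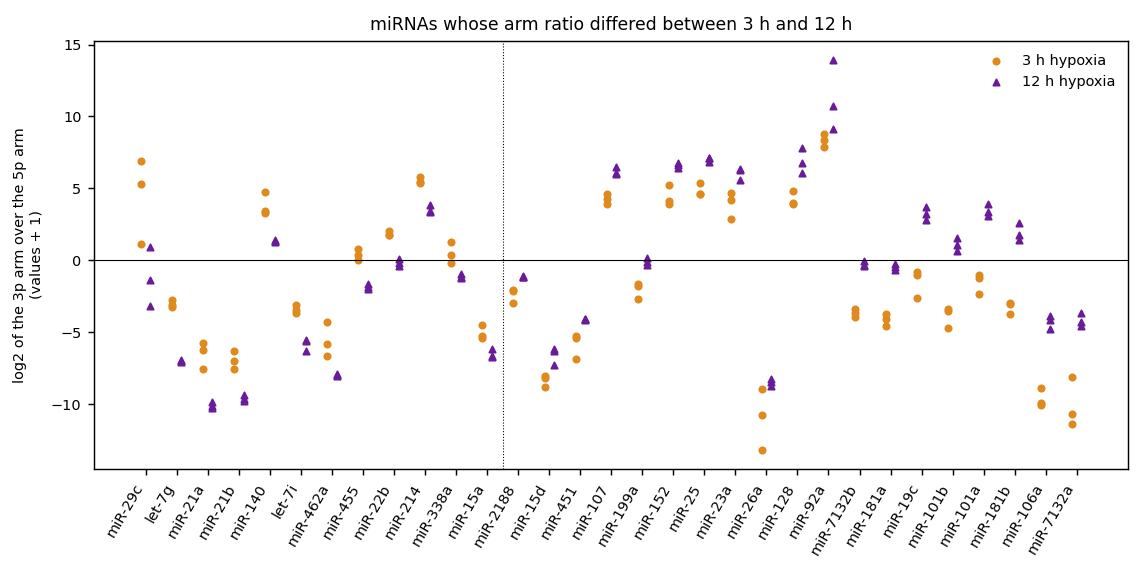
Log2 of the 3p over the 5p strand (values plus 1, forms summed) for the 31 microRNAs whose ratio differed between 3 h (circles) and 12 h (triangles), 1 point per library, ordered by the change. The 12 left of the dotted line moved towards 5p, and among the 19 right of it miR-101a, miR-101b, miR-19c and miR-181b lie below 0 at 3 h and above 0 at 12 h.

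The main forms of miR-210, miR-462, miR-731 and miR-92 did not pass under the main settings. ssa-miR-210-5p was at 5169, 5151 and 4211 at 3 h and at 4524, 5814 and 5957 at 12 h (log2 difference 0.16, limma adjusted p = 0.778), and ssa-miR-210-3p at 2956, 1787 and 994 and at 988, 1225 and 1478 (-0.52, limma adjusted p = 0.472). miR-462 and miR-731 form a cluster found in teleosts, of which ssa-miR-731-5p was at 27607, 41876 and 42340 and at 15075, 9460 and 13668 (-1.55, limma adjusted p = 0.1), with groups that did not overlap, and ssa-miR-462a-5p overlapped (-0.44). A minor form, ola-miR-731_L+1R+5, fell from 15, 31 and 67 to 0 in every library of 12 h (limma adjusted p = 0.0208); it was chosen after its values were seen. ssa-miR-92a-3p differed by -0.43 without passing. Scaled to the library total, ssa-miR-731-5p (-2.80, limma adjusted p = 0.0224) and ssa-miR-92a-3p (-1.68, limma adjusted p = 0.0160) passed as lower. With miR-122 left out of the total both passed too (limma adjusted p = 0.0390 and 0.0439). ssa-miR-462a-5p and ssa-miR-210-5p passed under neither of these scalings.

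By list, 11 hepatocyte profiles rose and 1 fell of 38 (median log2 change 0.94, against -0.28 over all 622), all risers being forms of miR-22, miR-101, miR-122 or miR-152. The lists were chosen with earlier results of these data known, so the share called in a list is a description. Of the defining hepatocyte markers alone (miR-122, miR-192 and miR-194), 1 of 16 tested profiles rose and 0 fell. The miR-17-92 family clusters had 6 higher and 2 lower of 38 (median -0.47), and the hypoxia-responsive list 6 and 8 of 81 (0.01). The metabolic list had 2 and 1 of 41 (0.23), one of the risers being ssa-miR-29c-5p, from 0, 13 and 0 to 93, 154 and 19. Red blood cell microRNAs had 3 and 4 of 32 (-0.20), white blood cell and inflammation microRNAs 3 and 5 of 38 (-0.26), and endothelial and stromal ones 4 and 2 of 39 (0.31). Of 12 epithelial and bile duct profiles 1 rose, ssa-miR-203a-3p (84, 113 and 96 against 489, 278 and 369). Of 3 muscle profiles 1 rose, ssa-miR-499b-5p_R-1 (525, 404 and 252 against 1429, 3447 and 2022), and of 11 neural and endocrine profiles 1 rose, ssa-miR-128-3p (8610, 5744 and 4823 against 14350, 13550 and 14341), and 2 fell. With values scaled to the library total ssa-miR-128-3p had a change of -0.072. The share called was 31.6% of the hepatocyte list, 21.1% of the miR-17-92 family clusters and 17.3% of the hypoxia-responsive list. It was 7.32% of the metabolic, 21.9% of the red blood cell and 21.1% of the white blood cell and inflammation list. In the endothelial and stromal list it was 15.4%, against 15.3% over all 622 tested. The epithelial, muscle and neural lists, at 8.33%, 33.3% and 27.3%, held few profiles.

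Beyond these, 24 families had 1 form called. ssa-miR-21b-5p, the most abundant form after miR-122 at 12 h, rose from 204813, 188892 and 158046 to 585622, 513849 and 323628 (1.33 ± 0.41, limma adjusted p = 0.0393). ssa-miR-106a-3p_R-1, named after its values were seen, rose from 0, 0 and 2 to 27, 25 and 26, and ssa-miR-125a-3p fell from 73, 29 and 80 to 0, 12 and 2. Predicted candidates without a family number made up 12 of the 95 calls, 5 higher and 7 lower.

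The identity of the tissue was clear in both groups, since hepatocyte markers (miR-122, miR-192 and miR-194) summed to 501305 to 940155 at 3 h and 3284984 to 3536916 at 12 h. Endothelial miR-126 summed to 6380 to 8071 and 41161 to 49088, stromal markers to 89963 to 138977 and 100756 to 120217, epithelial markers to 2774 to 10532 and 6238 to 6897, and muscle markers to 385 to 735 and 1500 to 3532. The muscle sum was mostly ssa-miR-499b-5p_R-1, and its other members did not move together. ssa-miR-133b-3p_L-1R+2 went from 137, 80 and 98 to 29, 29 and 57, and ssa-miR-206-3p from 29, 19 and 12 to 0, 0 and 7. ssa-miR-1-3p went from 24, 13 and 14 to 42, 47 and 97. miR-122 took 31.4%, 35.7% and 21.5% of the library totals at 3 h (29.5% ± 7.26, SD, n = 3) and 56.1%, 55.7% and 60.2% at 12 h (57.3% ± 2.49), a gain of 27.8 points. The exact two-sided permutation p was 0.1, the smallest that 3 against 3 can give. Library totals, summed over the distinct profiles, ran from 2218703 to 2529704 at 3 h and from 5734503 to 5766802 at 12 h, and the number of reads behind them is unknown.

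The balance of rises and falls depended on the scaling. The deposited values are labelled TPM, a unit in which library totals are equal, yet the totals given above were not. Scaling to a common library total is what that label would imply. Set to a common library total, 14 profiles were higher and 155 lower of 169 called (median change -1.46), and set to the total of all other microRNAs 33 were higher and 79 lower of 112 (-0.81). Centred on each library's median, 86 were higher and 21 lower of 107 (0.16). Every one of the 25 called forms in the families that switched higher kept a change above 0, and every one of the 9 in those that switched lower a change below 0, under the 5 other scalings tried (library total, total without miR-122, quantile, median and GC correction). In the families called both ways 24 of 25 kept their sign, the exception being ola-miR-199a-3p_R+1. The calls changed more than the signs. Scaled to the library total, 5 of the 12 families still switched the same way, miR-10014 upward and miR-24, miR-138, miR-150 and miR-9226 downward, while miR-19, miR-101 and miR-7132 were called both ways. miR-10014, the only family upward on that scale, may share reads with miR-122 and is uncertain as a separate family. With miR-122 left out of the total there were 7 of the 12, miR-126 and miR-152 being the additional ones. Quantile normalization left 9 of the 12, without miR-24, miR-138 and miR-7132, and median centring left 10, without miR-24 and miR-138. The GC correction left 7, without miR-24, miR-135, miR-138, miR-7132 and miR-9226.

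Change also went with base composition. Median GC content was 39.1% in forms that rose, 52.2% in forms that fell and 47.6% over all tested, and across 621 forms with a full sequence the correlation of log2 change with GC content was -0.48. These forms share their 6 libraries, so it is a description. After a correction for GC content within each library it was -0.04, and 72 profiles were called (11.6%), 47 higher (7.56%) and 25 lower (4.02%), of which 56 were among the 95. Then 8 families switched, 7 of them among the 12: miR-10014, miR-19, miR-101, miR-126, miR-130, miR-150 and miR-152. No profile of miR-24, miR-135, miR-138 or miR-9226 passed, and ssa-miR-24a-3p was at -0.10. ssa-miR-101b-3p_R+1 stayed at 3.11 and ssa-miR-152-3p at 3.04. ssa-let-7e-5p (1.59) and ssa-let-7b-5p (-2.32) both still passed, in opposite directions, and ssa-let-7g-5p (0.81) did not.

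**Figure D5:**
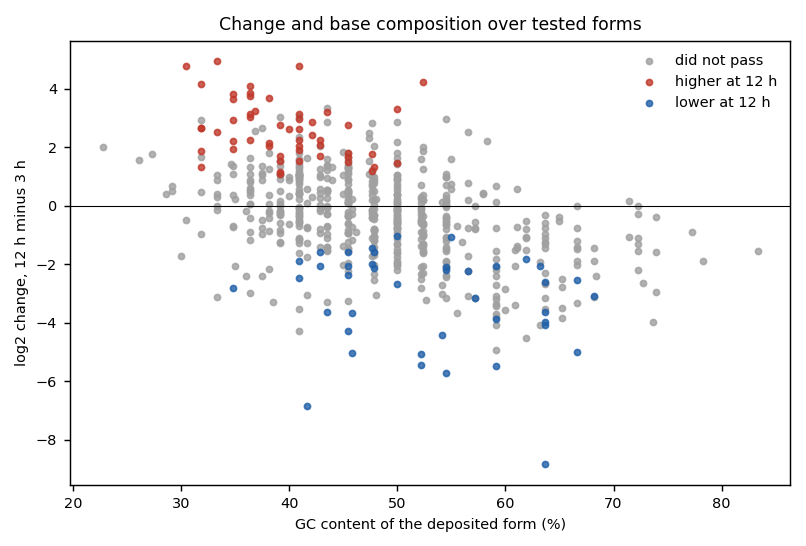
Log2 change (12 h minus 3 h) against the GC content of the deposited form for 621 tested forms, coloured by call. Forms that rose sit mostly at low GC content (median 39.1%) and forms that fell at higher GC content (median 52.2%).

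The number of calls rested on single libraries. Without library 1, 2 or 3 of 3 h, 33, 67 and 24 profiles were called, and without library 1, 2 or 3 of 12 h 7, 40 and 29. The families that switched then numbered 4, 11, 4, 1, 6 and 4. Of 71 named forms past the threshold, 7 passed in all 6 of these fits: ssa-miR-101a-3p, ssa-miR-101b-3p_R+1, ssa-miR-152-3p, cpi-let-7g-3p_1ss8GA, ssa-miR-499b-5p_R-1, cfa-miR-486_R+1 and ssa-miR-181a-1-3p. Another 7 passed in 5 of the 6, among them ssa-let-7e-5p, ssa-miR-19c-3p and both miR-135 forms. By contrast 19 passed in none, among them ssa-miR-24a-3p, both miR-138 forms, ssa-miR-15b-5p, oni-miR-457, both miR-22 forms and ssa-miR-21b-5p. Another 19 passed in only 1 of the 6, among them ssa-miR-122-5p_R-1, ssa-miR-126-3p, both called miR-7132 forms, ssa-miR-24b-3p, ssa-miR-15d-5p and ssa-miR-181a-5p. ssa-let-7b-5p was among 8 that passed in 2. None of the 71 changed sign in these fits. By the SD of log2 differences between libraries over tested profiles, library 1 of 24 h of hypoxia was at 2.24 and 2.14 from libraries 2 and 3, and these were at 1.41 from each other. Library 1 of reoxygenation was at 2.92 and 2.98, against 1.48, and library 1 of control at 1.92 and 1.79, against 1.09. Within 3 h and within 12 h library 1 was also the furthest from its group. Some forms in control library 1 lay towards their 12 h values. ssa-miR-152-3p was at 19631, 3959 and 7139 in the control libraries, ssa-let-7e-5p at 57619, 20668 and 23515 and oni-miR-457 at 2409, 20933 and 18632. Others did not, such as ssa-miR-135c-5p at 202, 155 and 225. With library 1 of 24 h and of reoxygenation left out of the shared fit 185 profiles were called, 76 higher and 109 lower, and 24 families switched. The same SD was 1.20 to 1.46 within 3 h, 1.07 to 1.47 within 12 h and 1.75 to 2.50 between the groups.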

How the data were processed

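Small RNA from rainbow trout liver was extracted with Trizol and sequenced on an Illumina platform, per the labels' protocols. The authors deposited 1 value for each form in each library. The score deposited by the authors is a normalized value rounded to whole numbers and is labelled TPM. In that unit every library has the same total. Here totals over the distinct profiles ran from 2090585 in library 3 of control to 6181106 in library 1 of 24 h of hypoxia. The label therefore does not settle the scale, and the values were used as deposited. The sources used here do not name an aligner, build or filter. Values were transformed as log2(value + 1) and, with all 15 libraries in 1 fit, analysed in limma 3.58.1 (trended variance; R 4.3.3) for profiles with a mean of at least 10. p-values were adjusted by Benjamini-Hochberg at 0.05. Raw counts had been allowed for in the planned test but were not what the table holds. Members, families, lists and the naming rule were chosen with earlier results of these data known. Named were the 10 largest rises and 10 largest falls with non-overlapping libraries and a group mean of at least 50, the 5 most abundant called forms per direction, called forms of families that switched, and main forms of set microRNAs and lists; this text names the examples that carry each group. Other scalings, filters, pseudocounts, a GC correction (lowess, span 0.5), summed forms, a replicate block and each library left out were tried. Strand ratios were log2 differences of forms summed by number, letter and arm. The fit was tested on simulated data with 200 profiles changed. Coordinates are left out because no genome was at hand, and near-identical forms may share reads.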

Additional observations from a re-analysis of the deposited data

How the results depend on the processing

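The count of 95 called profiles became 169 scaled to the library total, 210 with the 6 libraries of 3 h and 12 h alone and 185 without library 1 of 24 h and of reoxygenation. The 12 families that switched became 28, 24 and 24 under these settings. Leaving out 1 library gave 7 to 67 profiles, 1 to 11 families and 18 to 26 strand ratios. The other settings kept these counts within 1.5 times. With the replicate number as a block 113 profiles were called and 12 families switched, 8 of them among the 12 above. miR-19, miR-101 and miR-7132 were then called both ways, miR-138 no longer switched, and miR-21, miR-92, miR-125 and miR-214 entered. The same-number libraries correlated at 0.09, -0.06 and 0.15, and not every library correlated best with its own number, so the numbers are not taken as pairs. Of 71 named forms past the threshold, the GC correction kept 45 and scaling to the library total 40. Changes of sign were to -0.11 for ola-miR-199a-3p_R+1, -0.072 for ssa-miR-128-3p, -0.13 for ssa-miR-26a-5p, -0.35 for ssa-miR-16a-5p, -0.51 for ssa-miR-143-3p_R+1 and -1.09 for ssa-miR-210-5p scaled to the total, and to -0.37 for ssa-miR-210-5p with miR-122 left out of it. Centred on the median, ssa-miR-462a-5p was at 0.0028, ssa-miR-92a-3p at 0.012 and ssa-miR-200b-3p_R-1 at 0.17. ssa-miR-92a-3p was at 0.49 with the GC correction, and ssa-miR-200b-3p_R-1, at -0.27, ran from -0.87 to 0.26 when 1 replicate was left out. Under quantile normalization ssa-miR-122-5p_R-1 was at 0 by construction, as the top rank takes the same value in every library. Apart from that one, the cause was not tested. Depth is unknown, so low values carry no counting interval.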
